A study of Mus musculus with 12 samples.

Results

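The potassium channel gene family was examined in the hearts of control mice and of mice with mutant IDH2, the mitochondrial isocitrate dehydrogenase. Members were the genes whose single symbol in the array platform's annotation starts with Kcn, the prefix of potassium channel subunits and their auxiliary proteins. There were 92 such genes among 19937 genes measured, and 23 of them were called heart-expressed because their mean log2 intensity over all 12 arrays was 7 or more. The other 69 were dim, with means from 4.22 to 6.72 and a median of 5.63. Just inside the level lay Kcnv2 (7.06), Kcna5 (7.07) and Kcna3 (7.08), and just outside it lay Kcnn1 (6.72), Kcnn2 (6.72) and Kcnh4 (6.65). Kcnv2 reached the level through its control arrays: its group means were 7.999 (control), 6.91 (R140Q) and 6.28 (R172K). Of the 92 symbols, 3 belong to antisense transcripts and not to channel genes, and one of these, Kcnd3os, was among the 23.

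The study concerns cardiomyopathy in mice whose mutant IDH2 makes D-2-hydroxyglutarate. Total RNA from hearts was hybridised to 12 arrays: 4 from control mice, 4 from mice with the IDH2 R140Q mutant and 4 from mice with the IDH2 R172K mutant, all of a mixed C57BL/6, 129/sv and Balb/c background. Mutant mice had received 2 mg of 4-hydroxytamoxifen on 3 days at 5 weeks of age, and no treatment is stated for control mice, so an effect of the drug and one of the mutation cannot be told apart in any contrast with control. How the mutant gene was introduced, which cells express it, the age at dissection and whether each array stands for 1 animal do not appear in the labels, so a p-value here reflects the spread among these arrays, which may be technical.

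Values are log2 of the authors' RMA intensity for 1 probe set per gene. Different probe sets bind with different efficiency, so levels were compared between groups of hearts for the same gene, never between genes. Group values are means ± SD of 4 arrays, and a gene was called changed at a Benjamini-Hochberg adjusted p under 0.05 from limma, a linear model fitted to all 19937 genes. Array medians lay between 74.8 and 78.0 intensity units. All 9 cardiomyocyte markers were bright, and 3 arrays stood apart by lung or atrial markers. The summed level of 4 lung epithelial markers reached 12.23 in R140Q 4 against at most 7.93 in every control and R172K array. The atrial light chain gene Myl7 was highest in control 3 (12.49) and R172K 3 (11.36). R172K 3 also lay nearest to control on the first principal component of all genes and R172K 4 farthest. Results that rest on these arrays are given with and without them.

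Potassium channels let potassium leave the heart muscle cell and so end each action potential and hold the resting voltage. In mouse ventricle the fast transient outward current, carried by Kv4 pore subunits with the calcium-binding partner KChIP2, dominates early repolarisation, and the inward rectifier holds the resting voltage. Reduced outward potassium current is a well-known feature of failing heart muscle in several species.

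In R172K hearts 9 of the 23 heart-expressed members fell, 1 rose and 13 did not pass the test; 22.7% of all genes at that level were called in either direction, 11.5% lower and 11.1% higher. Kcnv2, which reached the level of 7 through its control arrays, is one of the 9: without it 8 of 22 fell, 1 rose and the median log2 difference was -0.15. Over all 92 members, 14 fell, 1 rose and 77 did not pass, where 13% of all 19937 genes were called. The median log2 difference of the 23 was -0.16, against 0.02 over all genes of that level and 0.00 over all genes tested; it was -0.24 without R172K 1, -0.25 without R172K 2 and -0.06 without R172K 4. In R140Q hearts 2 of the 23 fell, none rose by limma's test, and 21 did not pass, where 3.67% of genes at that level were called, and 1.6% were called lower. At an unadjusted p under 0.05, 1 of the 23 was higher and 9 were lower in R140Q hearts. Their median difference was -0.20, against 0.02 over all genes of that level, and was -0.13 with Myl7 intensity as a covariate. Both contrasts use the same control arrays. Without control 3, R172K 3 and R140Q 4 together, 10 of the 23 fell and 1 rose in R172K hearts, and 2 fell in R140Q hearts. The R140Q count of members called in either direction also moved with single arrays. It was 6 of 23 without R172K 3 or R172K 4, arrays of the other mutant in the same fit. Without R172K 4 the 6 include Kcnk6, which was higher (limma adjusted p = 0.0225). The count was 1 without control 1, control 2, R140Q 3 or R140Q 4. The share called over all genes, 2.2%, moved with these arrays too. It was 5.09% without R172K 3 and 4.93% without R172K 4. It was 0.502% without control 1, 0.772% without control 2, 0.552% without R140Q 3 and 1.3% without R140Q 4.

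**Figure D1:**
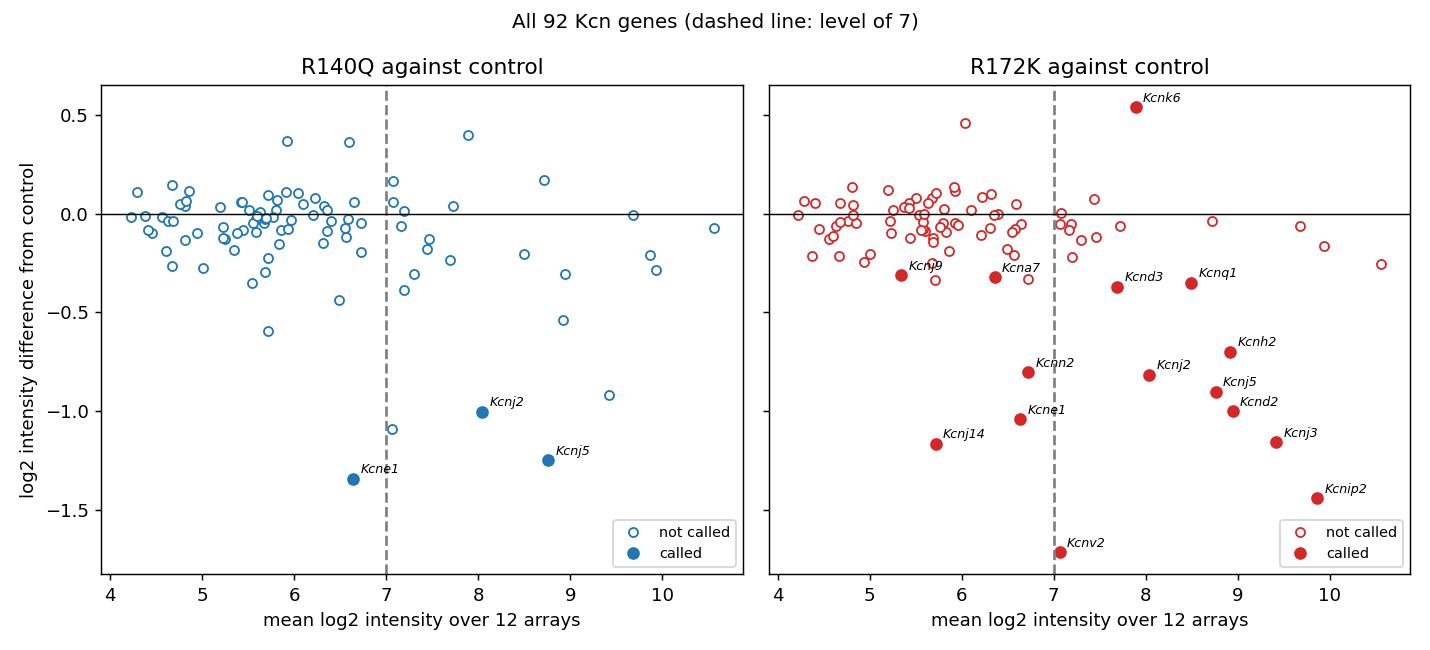
Each point is 1 of the 92 Kcn genes, placed by its mean log2 intensity over 12 arrays (horizontal) and by its log2 difference from control (vertical), for R140Q on the left and R172K on the right. Filled and named points passed the test, and the dashed line marks the level of 7. In R140Q 3 genes passed, all lower, and in R172K 15 passed, 14 of them lower.

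Some cardiomyocyte markers fell in R172K hearts as well. In R172K hearts 11.5% of all genes with a mean of 7 or more were called lower and 11.1% were called higher. Of 9 cardiomyocyte markers 5 fell and 4 did not pass in R172K hearts, with a median log2 difference of -0.26. At an unadjusted p under 0.05, 8 of the 9 were lower in R172K hearts and none was higher. The summed level of the 9 ran from 16.54 to 16.60 in control, from 16.39 to 16.49 in R140Q and from 16.14 to 16.44 in R172K arrays. The control range overlapped that of neither mutant. By limma none of the 9 passed in R140Q hearts, where their median was -0.15 and 4 were lower at an unadjusted p under 0.05. In a sample of whole tissue, fewer muscle cells and less RNA per cell cannot be told apart. Some markers of other cell types rose. Of 5 endothelial markers 3 rose in R140Q hearts, where 2.2% of all genes were called, and 2 in R172K hearts, and their summed level ran from 12.34 to 12.42 in control, from 12.71 to 12.81 in R140Q and from 12.52 to 12.77 in R172K arrays. Of 5 pericyte markers 2 rose in R172K hearts and none passed in R140Q hearts by limma, where 3 were higher at an unadjusted p under 0.05. In R172K hearts 3 were higher and 1 was lower at an unadjusted p under 0.05. The lower one was Vtn, at 9.03 in control and 8.49 in R172K hearts. Pericyte markers summed to between 12.50 and 12.62 in control arrays and to between 12.76 and 12.95 in R140Q and 12.79 and 12.89 in R172K arrays. The brightest of them, Rgs5, weighs most in that sum. In R172K hearts 2 of 5 fibroblast markers rose, with sums from 12.92 to 13.23 in control and from 13.11 to 13.54 in R172K arrays, and 1 of 5 macrophage markers rose, with sums from 9.64 to 10.18 in control and from 9.78 to 11.31 in R172K arrays. Neither list had a marker that passed in R140Q hearts by limma or at an unadjusted p under 0.05. The part of any of these shifts in the channel results was not tested.

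The genomic DNA just before the start sites of 4 genes of the transient outward current and the inward rectifier is shown. These genes fell in R172K hearts. Other members that fell, Kcnh2 and Kcnq1 among them, are not shown. Each run holds the 250 bases before the annotated start, from RefSeq on GRCm38.p6, 5′ to 3′ along the gene. Capitals mark the GC box, GGGCGG or its reverse CCGCCC, and the E-box CACGTG. The window of Kcnd2 is chr6:21215096-21215345 on the plus strand, that of Kcnd3 is chr3:105451640-105451889 on the plus strand, that of Kcnip2 is chr19:45816064-45816313 on the minus strand, and that of Kcnj2 is chr11:111065914-111066163 on the plus strand.
Kcnd2: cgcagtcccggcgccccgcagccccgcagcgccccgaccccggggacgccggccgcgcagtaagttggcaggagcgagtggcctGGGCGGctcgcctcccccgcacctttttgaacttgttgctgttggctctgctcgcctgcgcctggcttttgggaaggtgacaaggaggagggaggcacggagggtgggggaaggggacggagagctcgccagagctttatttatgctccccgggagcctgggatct
Kcnd3: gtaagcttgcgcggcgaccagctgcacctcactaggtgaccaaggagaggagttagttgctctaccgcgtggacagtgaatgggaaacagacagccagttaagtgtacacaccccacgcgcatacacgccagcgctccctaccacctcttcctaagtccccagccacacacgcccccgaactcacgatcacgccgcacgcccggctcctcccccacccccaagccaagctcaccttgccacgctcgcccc
Kcnip2: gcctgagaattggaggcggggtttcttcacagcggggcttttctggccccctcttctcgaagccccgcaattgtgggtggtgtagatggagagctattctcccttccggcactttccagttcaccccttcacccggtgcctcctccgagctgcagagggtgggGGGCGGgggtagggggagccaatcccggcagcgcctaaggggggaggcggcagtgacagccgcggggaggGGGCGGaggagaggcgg
Kcnj2: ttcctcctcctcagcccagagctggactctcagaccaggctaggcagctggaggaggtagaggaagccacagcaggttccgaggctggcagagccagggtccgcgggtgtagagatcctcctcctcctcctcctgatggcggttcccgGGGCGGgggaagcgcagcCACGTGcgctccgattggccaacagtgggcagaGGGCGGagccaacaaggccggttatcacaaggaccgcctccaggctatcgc
Kcnd2 holds 1 GC box, Kcnip2 holds 2, Kcnj2 holds 2 and the only E-box of the set, and Kcnd3 holds neither motif. Of 32851 windows of the same length in the RefSeq table, 32.7% hold a GC box and 6.02% an E-box. Of the 23 heart-expressed members 16 had a window in that table. The motifs were chosen after the sequences were read, and a match describes letters and not a bound site.

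Kcnip2, Kcnd2 and Kcnd3, subunits of the transient outward current, fell in R172K hearts. Of 4 expressed genes of this role 3 fell and 1 did not pass, where 11.5% of all genes with a mean of 7 or more were called lower. Kcnip2 lay at 10.64, 10.64, 10.15 and 10.23 in control hearts 1 to 4, at 10.58, 9.89, 10.003 and 10.35 in R140Q hearts and at 8.90, 9.07, 10.01 and 7.91 in R172K hearts. Kcnip2 encodes KChIP2, the auxiliary subunit that brings Kv4 channels to the cell surface. R172K 1, 2 and 4 all lay below every control and R140Q array, while R172K 3 lay within the R140Q range and just below the control arrays. The mean of Kcnip2 fell from 10.42 ± 0.26 in control to 8.97 ± 0.86 in R172K hearts, a log2 difference of -1.44 ± 0.33 (SE, limma adjusted p = 0.0152). For Kcnip2 the R140Q difference of -0.21 ± 0.33, at a mean of 10.20 ± 0.32, did not pass (adjusted p = 0.825).

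Kcnd2 lay at 9.47, 9.66, 9.07 and 9.33 in control hearts 1 to 4, at 9.10, 9.09, 9.20 and 8.92 in R140Q hearts and at 8.17, 8.14, 9.01 and 8.21 in R172K hearts. Kcnd2 encodes a Kv4 pore subunit, and R172K 3 again stood apart from the other R172K arrays, which lay below every control and R140Q array. Mean Kcnd2 intensity fell from 9.38 ± 0.25 in control to 8.38 ± 0.42 in R172K hearts, a log2 difference of -1.001 ± 0.18 (SE, limma adjusted p = 0.00527). In R140Q hearts the difference was -0.31 ± 0.18 at a mean of 9.08 ± 0.12 and did not pass (adjusted p = 0.437). Kcnd3 lay at 7.92, 7.91, 7.85 and 7.89 in control hearts 1 to 4, at 7.61, 7.70, 7.75 and 7.57 in R140Q hearts and at 7.52, 7.60, 7.57 and 7.41 in R172K hearts. Kcnd3, the second Kv4 pore gene, showed no overlap between control and either mutant, although its R172K difference was the smallest of the 3. Its mean fell from 7.89 ± 0.03 in control to 7.52 ± 0.09 in R172K hearts, a log2 difference of -0.37 ± 0.06 (SE, limma adjusted p = 0.0043). The R140Q mean of 7.66 ± 0.08 differed from control by -0.23 ± 0.06, which did not pass (adjusted p = 0.0764). Leaving out R172K 4 brought the R140Q difference of Kcnd3 past the threshold (adjusted p = 0.0413), although R172K 4 is in neither group mean. Kcnip3, a relative of KChIP2 that also binds DNA, did not pass, with 7.54 ± 0.07 in control, 7.42 ± 0.09 for R140Q and 7.43 ± 0.39 for R172K. Its R172K 3 array, at 7.998, was the highest of all 12 arrays, and the other R172K arrays lay between 7.17 and 7.36. Without R172K 3 the Kcnip3 difference was -0.31 and passed (adjusted p = 0.0123), where 20.9% of all genes passed in place of 13%. The Kcnd3 antisense transcript Kcnd3os differed by -0.05 in R172K hearts and did not pass.

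**Figure D2:**
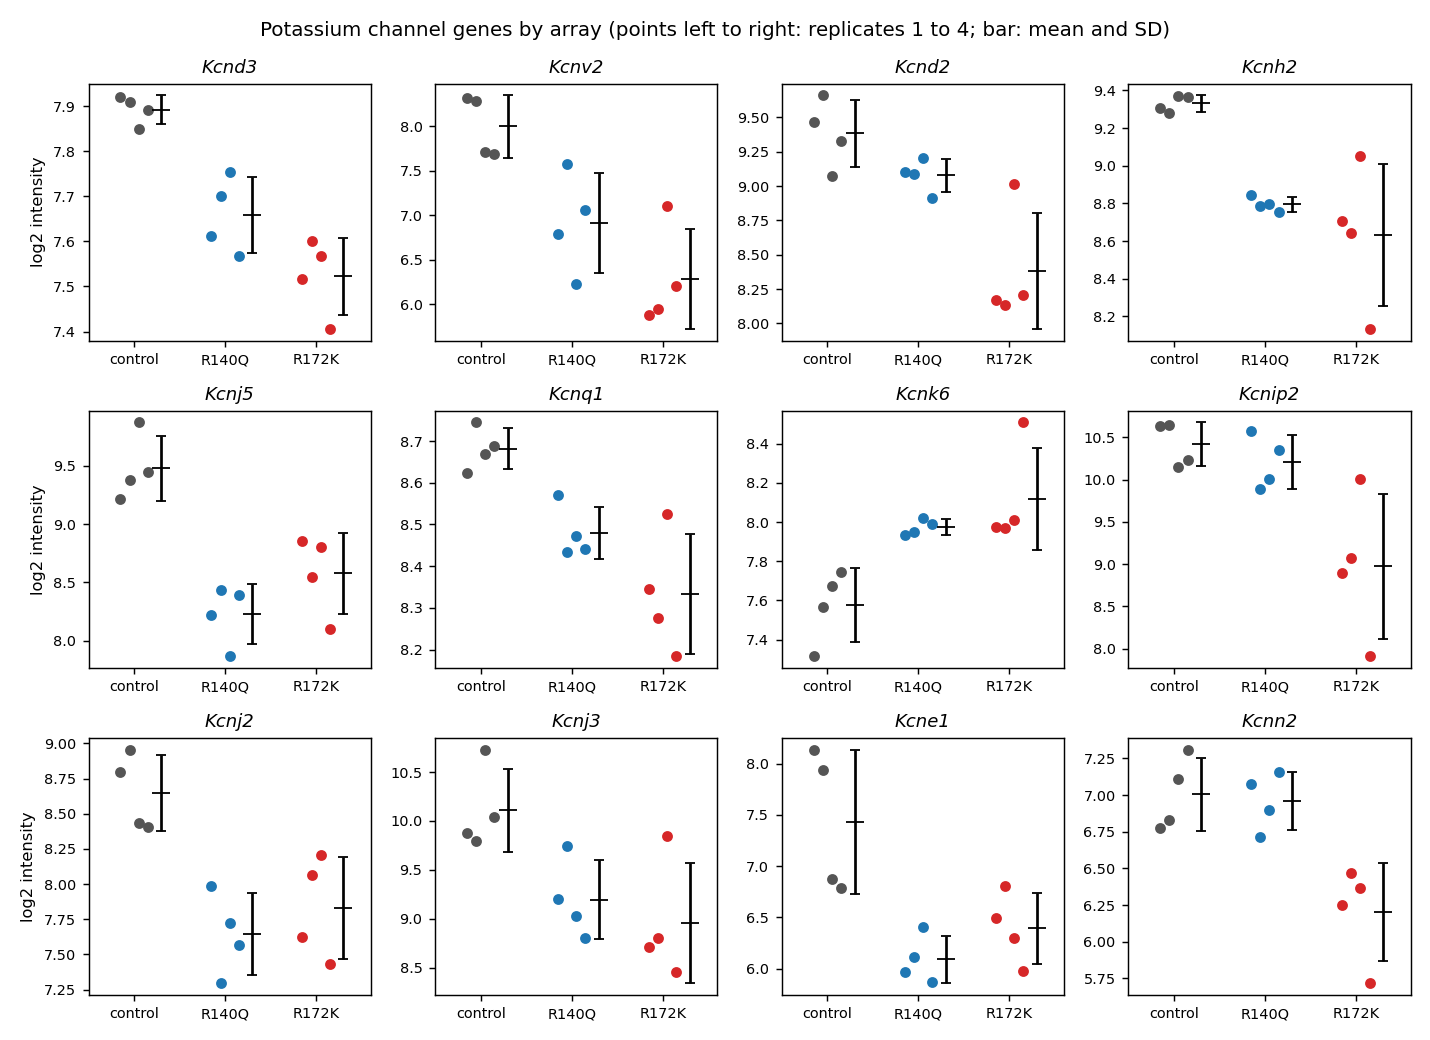
Log2 intensity of each array (points, replicates 1 to 4 from left to right) with the group mean and SD (bar) for the 10 heart-expressed genes that passed the test in a contrast and for the dim genes Kcne1 and Kcnn2. Each panel has its own vertical scale, and R172K 3 sits near the control arrays for Kcnd2, Kcnip2 and Kcnj3.

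The direct contrast of the mutants bore on whether the transient outward genes differed between them. Kcnip2 was lower in R172K than in R140Q hearts by -1.23 ± 0.33 (SE; 95% interval -1.95 to -0.51; limma adjusted p = 0.0851) and Kcnd2 by -0.70 ± 0.18 (SE; 95% interval -1.09 to -0.30; limma adjusted p = 0.0768), and neither passed the test. Without R172K 3 these differences were -1.58 (adjusted p = 0.00466) and -0.91 (adjusted p = 0.00157), and both passed. Without control 3, R172K 3 and R140Q 4 together they were -1.53 (adjusted p = 0.0256) and -0.96 (adjusted p = 0.00216). The calls of Kcnip2 and Kcnd2 in this contrast thus depended on 1 array. Over all genes, leaving out R172K 3 raised the share called from 1.48% to 7.91%. Leaving out the 3 arrays raised it to 4.04%.

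The pore genes of the rapid and slow delayed rectifiers, Kcnh2 and Kcnq1, fell in R172K hearts. Kcnh2 lay at 9.31, 9.28, 9.37 and 9.37 in control hearts 1 to 4, at 8.84, 8.78, 8.80 and 8.75 in R140Q hearts and at 8.71, 8.64, 9.05 and 8.13 in R172K hearts. Kcnh2 encodes the ERG pore subunit of the rapid delayed rectifier. All R140Q arrays and all R172K arrays lay below every control array, and the R140Q arrays lay within a narrow range. In log2 intensity Kcnh2 fell from 9.33 ± 0.04 in control to 8.63 ± 0.38 in R172K hearts, a log2 difference of -0.70 ± 0.14 (SE, limma adjusted p = 0.00848). For Kcnh2 the R140Q difference of -0.54 ± 0.14, at a mean of 8.79 ± 0.04, did not pass (adjusted p = 0.0668). The R140Q difference passed without R172K 3 (adjusted p = 0.0176) or R172K 4 (adjusted p = 0.00603), arrays that are not in either group mean. Kcnq1 lay at 8.62, 8.74, 8.67 and 8.69 in control hearts 1 to 4, at 8.57, 8.43, 8.47 and 8.44 in R140Q hearts and at 8.34, 8.28, 8.52 and 8.18 in R172K hearts. Kcnq1 encodes the pore subunit of the slow delayed rectifier, and all mutant arrays lay below all control arrays. The group mean fell from 8.68 ± 0.05 in control to 8.33 ± 0.14 in R172K hearts, a log2 difference of -0.35 ± 0.07 (SE, limma adjusted p = 0.0103). In R140Q hearts the difference was -0.20 ± 0.07 at a mean of 8.48 ± 0.06 and did not pass (adjusted p = 0.174).

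Kcne1 lay at 8.14, 7.94, 6.87 and 6.79 in control hearts 1 to 4, at 5.97, 6.12, 6.40 and 5.87 in R140Q hearts and at 6.49, 6.80, 6.30 and 5.98 in R172K hearts. Kcne1, a dim member, encodes the auxiliary subunit that slows the Kcnq1 channel. Control 1 and 2 lay more than 1 log2 unit above control 3 and 4, and control 4 lay level with R172K 2. On the first principal component of all genes control 1 and 2 lay at -26.88 and -25.72, and control 3 and 4 at -17.09 and -17.8. Among the other members that passed, control 1 and 2 both lay above control 3 and 4 for Kcnd2, Kcnd3, Kcnip2, Kcnj2, Kcnj14 and Kcnv2. Both lay below them for Kcna7, Kcnh2, Kcnj3, Kcnj5, Kcnk6 and Kcnn2. The mean of Kcne1 fell from 7.43 ± 0.70 in control to 6.09 ± 0.23 in R140Q hearts, a log2 difference of -1.34 ± 0.29 (SE, limma adjusted p = 0.0341). In log2 intensity Kcne1 fell from 7.43 ± 0.70 in control to 6.39 ± 0.35 in R172K hearts, a log2 difference of -1.04 ± 0.29 (SE, limma adjusted p = 0.0317). Both calls depended on single arrays. The R140Q difference ran from -1.45 to -1.11 and did not pass without control 1 (adjusted p = 0.0965), control 2 (0.101), R140Q 1 (0.0949), R140Q 2 (0.0536), R140Q 3 (0.0713), R140Q 4 (0.081) or R172K 1 (0.0513). The R172K difference did not pass without control 1 (-0.81, adjusted p = 0.0882), control 2 (-0.87, 0.0963), R172K 1 (-1.07, 0.0696) or R172K 4 (-0.90, 0.0787).

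The other expressed Kv pore genes did not pass the test in either contrast with control. Kcna5, which carries a delayed rectifier current in mouse heart, had 7.03 ± 0.06 in control, 7.20 ± 0.50 for R140Q and 6.98 ± 0.10 for R172K. Its spread was wide in R140Q hearts alone, from 6.54 in R140Q 1 to 7.69 in R140Q 2. Kcna2 had 7.44 ± 0.14 in control, 7.14 ± 0.11 for R140Q and 7.31 ± 0.17 for R172K, and Kcna3 had 7.05 ± 0.11 in control, 7.12 ± 0.07 for R140Q and 7.06 ± 0.05 for R172K. Kcna2 arrays of R140Q all lay below the control arrays, at 6.98 to 7.24 against 7.34 to 7.64. Kcna7 lay at 6.34, 6.49, 6.57 and 6.58 in control hearts 1 to 4, at 6.50, 6.45, 6.25 and 6.45 in R140Q hearts and at 6.11, 6.25, 6.39 and 5.95 in R172K hearts. Kcna7, a dim Kv gene of muscle, differed little between groups and passed narrowly, with R172K 3 above control 1. Mean Kcna7 intensity fell from 6.50 ± 0.11 in control to 6.18 ± 0.19 in R172K hearts, a log2 difference of -0.32 ± 0.10 (SE, limma adjusted p = 0.0455). That call was lost without any 1 array except control 1, R140Q 3 or R172K 3, with adjusted p from 0.0571 to 0.119 and differences from -0.35 to -0.25.

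Silent Kv subunits form no channel alone and modify other Kv channels. Kcnv2 lay at 8.32, 8.29, 7.71 and 7.69 in control hearts 1 to 4, at 6.79, 7.57, 6.22 and 7.06 in R140Q hearts and at 5.88, 5.95, 7.10 and 6.21 in R172K hearts. Kcnv2 had the largest R172K difference of all 92 members. Every mutant array lay below every control array, and R140Q 2 and R172K 3 were the highest of their groups. The group mean fell from 7.999 ± 0.35 in control to 6.28 ± 0.56 in R172K hearts, a log2 difference of -1.71 ± 0.30 (SE, limma adjusted p = 0.00499). The R140Q mean of 6.91 ± 0.56 differed from control by -1.09 ± 0.30, which did not pass (adjusted p = 0.0827). Without R140Q 2 the R140Q difference was -1.31 (adjusted p = 0.0446), and without R172K 3 it was unchanged in size and passed as well (adjusted p = 0.0309). Kcng2, also of this group, did not pass, with 10.67 ± 0.03 in control, 10.60 ± 0.08 for R140Q and 10.42 ± 0.23 for R172K. Without R172K 1 its R172K difference was -0.33 (adjusted p = 0.0487). Kcng1 had 7.73 ± 0.10 in control, 7.77 ± 0.13 for R140Q and 7.67 ± 0.14 for R172K.

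Among the inward rectifiers Kcnj2 and Kcnj5 fell in both mutants and Kcnj3 fell in R172K hearts. Of 6 expressed genes 2 fell and 4 did not pass in R140Q hearts, 3 fell and 3 did not pass in R172K hearts, and none rose by limma's test or at an unadjusted p under 0.05. Of all genes with a mean of 7 or more, 1.6% were called lower in R140Q and 11.5% in R172K hearts. Kcnj2 lay at 8.79, 8.96, 8.43 and 8.40 in control hearts 1 to 4, at 7.99, 7.30, 7.73 and 7.56 in R140Q hearts and at 7.62, 8.06, 8.21 and 7.43 in R172K hearts. Kcnj2 encodes the main pore subunit of the inward rectifier that sets the resting voltage. No mutant array reached the control arrays. The mean of Kcnj2 fell from 8.65 ± 0.27 in control to 7.64 ± 0.29 in R140Q hearts, a log2 difference of -1.003 ± 0.19 (SE, limma adjusted p = 0.0229). In log2 intensity Kcnj2 fell from 8.65 ± 0.27 in control to 7.83 ± 0.36 in R172K hearts, a log2 difference of -0.82 ± 0.19 (SE, limma adjusted p = 0.0164). The R140Q call was lost without control 1 (-0.95, adjusted p = 0.0796), control 2 (-0.90, 0.0738), R140Q 3 (-1.03, 0.0631) or R140Q 4 (-0.98, 0.0518). The R172K call was lost without control 1 (-0.77, adjusted p = 0.0507), control 2 (-0.71, 0.0543) or R172K 1 (-0.75, 0.0567). Between the mutants Kcnj2 differed by 0.19 ± 0.19 (SE; 95% interval -0.23 to 0.60; limma adjusted p = 0.718). Kcnj12, a second subunit of this current, did not pass in R140Q (-0.39, adjusted p = 0.0592) or R172K hearts (-0.22, adjusted p = 0.178). Its R140Q arrays, at 6.89 to 7.18, lay below the control arrays, at 7.25 to 7.47, and the difference passed without R172K 3 (adjusted p = 0.0491) or R172K 4 (adjusted p = 0.0192).

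Kcnj3 and Kcnj5 encode the subunits of the channel that acetylcholine opens, known mainly from atrial and pacemaker cells. Kcnj5 lay at 9.22, 9.38, 9.87 and 9.45 in control hearts 1 to 4, at 8.22, 8.43, 7.87 and 8.40 in R140Q hearts and at 8.85, 8.55, 8.80 and 8.10 in R172K hearts. All mutant arrays lay below all control arrays. Mean Kcnj5 intensity fell from 9.48 ± 0.28 in control to 8.23 ± 0.26 in R140Q hearts, a log2 difference of -1.25 ± 0.18 (SE, limma adjusted p = 0.00545). The group mean fell from 9.48 ± 0.28 in control to 8.58 ± 0.34 in R172K hearts, a log2 difference of -0.90 ± 0.18 (SE, limma adjusted p = 0.00889). Kcnj5 passed in both contrasts whichever single array was left out, and between the mutants it differed by 0.35 ± 0.18 (SE; 95% interval -0.05 to 0.74; limma adjusted p = 0.388). Kcnj3 lay at 9.88, 9.80, 10.73 and 10.04 in control hearts 1 to 4, at 9.20, 9.75, 9.02 and 8.80 in R140Q hearts and at 8.71, 8.80, 9.84 and 8.46 in R172K hearts. Control 3 was the highest array for both genes, and for Kcnj3 R172K 3 overlapped the control arrays while the other R172K arrays lay below them. Its mean fell from 10.11 ± 0.42 in control to 8.95 ± 0.61 in R172K hearts, a log2 difference of -1.16 ± 0.30 (SE, limma adjusted p = 0.0237). The R140Q mean of 9.19 ± 0.40 differed from control by -0.92 ± 0.30, which did not pass (adjusted p = 0.129). The R172K call of Kcnj3 was lost without control 3 (-0.95, adjusted p = 0.0632), R172K 1 (-1.08, 0.0739), R172K 2 (-1.11, 0.062) or R172K 4 (-0.99, 0.06), and the R140Q difference passed without R172K 3 (adjusted p = 0.0395).

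Atrial and conduction system markers were set beside Kcnj3 and Kcnj5. The summed level of 7 atrial markers ran from 12.46 to 14.83 in control, from 10.08 to 13.32 in R140Q and from 13.43 to 14.37 in R172K arrays. The bright gene Nppa, the atrial natriuretic peptide gene, weighs most in that sum and read 7.85 in R140Q 2 against 12.74 to 13.20 in the other R140Q arrays. Myl7 alone read 5.23 to 6.04 in R140Q arrays, below every control array, at 6.18 to 12.49, and every R172K array, at 7.43 to 11.36. By limma none of the 7 passed in either contrast with control (4 were lower in R140Q and none differed in R172K hearts at an unadjusted p under 0.05), and their median difference was -0.90 in R140Q and 0.55 in R172K hearts. With Myl7 intensity as a covariate the Kcnj5 difference in R140Q was -1.004 and did not pass (adjusted p = 0.142), while over all genes tested 13 passed in place of 439. Because every R140Q array lay below every other array for Myl7, this fit separates Myl7 poorly from the R140Q group. It cannot decide how far atrial tissue enters the R140Q differences. In R172K hearts the differences with this covariate were -0.91 for Kcnj5 (adjusted p = 0.00877) and -1.17 for Kcnj3 (adjusted p = 0.0086), and both passed. Without control 3, R172K 3 and R140Q 4 together the Kcnj5 difference was -1.17 (adjusted p = 0.0246) in R140Q and -0.85 (adjusted p = 0.0159) in R172K hearts, and that of Kcnj3 in R172K hearts was -1.25 (adjusted p = 0.00194). Of 5 conduction system markers 2 fell in each mutant, the pacemaker channel gene Hcn4 and Cntn2. Over all genes 2.2% were called in R140Q and 13% in R172K hearts. The summed level of the 5 markers ran from 9.06 to 9.53 in control, from 8.77 to 8.89 in R140Q and from 8.70 to 8.96 in R172K arrays, with no overlap between control and either mutant. Tbx3, the only one of the 5 with a mean of 7 or more, overlapped between all groups. Beyond the values with the Myl7 covariate and without those arrays, the part of the atrial and conduction markers in the Kcnj3 and Kcnj5 results was not tested.

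For the ATP-sensitive channel the pore subunit genes did not pass, while the regulatory subunit gene Abcc9 fell in R172K hearts. Kcnj11, its pore subunit in ventricular muscle, had 8.67 ± 0.20 in control, 8.85 ± 0.13 for R140Q and 8.64 ± 0.29 for R172K. Kcnj8, the pore subunit of vascular smooth muscle and pericytes, had 9.70 ± 0.14 in control, 9.69 ± 0.27 for R140Q and 9.64 ± 0.22 for R172K. Neither passed: the 95% interval of the R172K difference ran from -0.34 to 0.26 for Kcnj11 and from -0.36 to 0.24 for Kcnj8. Abcc9, the regulatory sulfonylurea receptor that pairs with both, fell by 1.11 in R172K hearts (limma adjusted p = 0.00344), from 11.53 to 10.42, and stood at 10.98 in R140Q hearts (adjusted p = 0.138). Abcc8, the other sulfonylurea receptor gene, did not pass in R140Q (-0.14, limma adjusted p = 0.693) or R172K hearts (-0.25, adjusted p = 0.279).

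**Figure D3:**
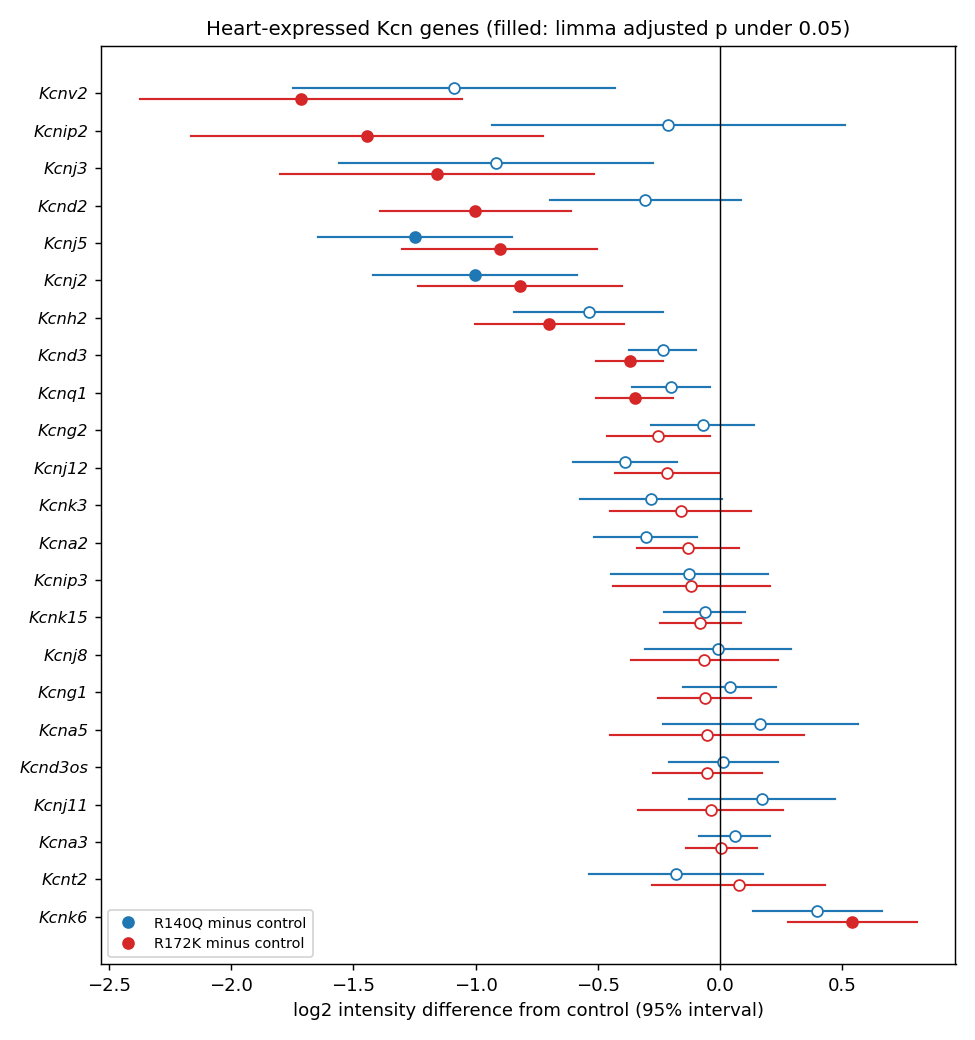
Log2 intensity difference from control (horizontal axis) with its 95% interval from limma for the 23 heart-expressed genes, R140Q in blue and R172K in red, with filled points for an adjusted p under 0.05. In R172K 9 filled points lie left of 0 and 1, Kcnk6, lies right of it.

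The dim inward rectifiers Kcnj14 and Kcnj9 also fell in R172K hearts. Kcnj14 lay at 6.40, 6.40, 6.17 and 6.24 in control hearts 1 to 4, at 5.70, 6.22, 5.54 and 5.38 in R140Q hearts and at 5.98, 4.67, 4.61 and 5.31 in R172K hearts. The R172K arrays of Kcnj14, a relative of Kcnj2, spread over more than 1 log2 unit, all below control. In log2 intensity Kcnj14 fell from 6.31 ± 0.11 in control to 5.14 ± 0.64 in R172K hearts, a log2 difference of -1.17 ± 0.26 (SE, limma adjusted p = 0.0137). For Kcnj14 the R140Q difference of -0.59 ± 0.26, at a mean of 5.71 ± 0.36, did not pass (adjusted p = 0.268). Kcnj9 lay at 5.56, 5.49, 5.57 and 5.41 in control hearts 1 to 4, at 5.36, 5.35, 5.22 and 5.36 in R140Q hearts and at 5.22, 5.17, 5.39 and 5.01 in R172K hearts. Kcnj9 is a relative of Kcnj3 known mainly from brain, and its intensity was low in all arrays, with the control arrays only narrowly above the mutant arrays. The group mean fell from 5.51 ± 0.08 in control to 5.20 ± 0.16 in R172K hearts, a log2 difference of -0.31 ± 0.08 (SE, limma adjusted p = 0.0236). That call was lost without control 1, 2 or 3 or R172K 1, 2 or 4, with adjusted p from 0.0547 to 0.0663 and differences from -0.32 to -0.25.

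Among 14 genes for 2-pore-domain channels, which carry background current, Kcnk6 rose in R172K hearts and the other 13 did not pass. Kcnk6 lay at 7.32, 7.57, 7.68 and 7.75 in control hearts 1 to 4, at 7.94, 7.95, 8.02 and 7.99 in R140Q hearts and at 7.98, 7.97, 8.01 and 8.51 in R172K hearts. Kcnk6 was the 1 member that rose in any contrast. All mutant arrays lay above all control arrays, and R172K 4 stood above the rest. Its mean rose from 7.58 ± 0.19 in control to 8.12 ± 0.26 in R172K hearts, a log2 difference of 0.54 ± 0.12 (SE, limma adjusted p = 0.0136). For Kcnk6 the R140Q difference of 0.40 ± 0.12, at a mean of 7.98 ± 0.04, did not pass (adjusted p = 0.109). The R140Q difference passed without R172K 4 (adjusted p = 0.0225), and the R172K difference passed whichever array was left out. Kcnk3, the best known background channel gene of heart, had 10.08 ± 0.16 in control, 9.80 ± 0.13 for R140Q and 9.92 ± 0.30 for R172K and did not pass. Kcnk15 had 7.21 ± 0.08 in control, 7.15 ± 0.07 for R140Q and 7.13 ± 0.14 for R172K and did not pass.

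Kcnn2 lay at 6.78, 6.83, 7.11 and 7.31 in control hearts 1 to 4, at 7.08, 6.72, 6.90 and 7.16 in R140Q hearts and at 6.25, 6.47, 6.37 and 5.72 in R172K hearts. Kcnn2, a dim member, encodes a small-conductance channel opened by calcium. It was the 1 gene of the 92 that passed between the mutants, and its R172K arrays lay below every control and R140Q array. In log2 intensity Kcnn2 fell from 7.01 ± 0.25 in control to 6.20 ± 0.34 in R172K hearts, a log2 difference of -0.80 ± 0.17 (SE, limma adjusted p = 0.0096). In R140Q hearts the difference was -0.04 ± 0.17 at a mean of 6.96 ± 0.20 and did not pass (adjusted p = 0.935). The difference of R172K from R140Q was -0.76 ± 0.17 (SE; 95% interval -1.12 to -0.40; limma adjusted p = 0.0469), where 1.48% of all genes were called. That call was lost without any 1 array except R172K 3, with adjusted p from 0.0514 to 0.143 and differences from -0.85 to -0.60; without R172K 3 it was -0.82 (adjusted p = 0.0191). None of the 23 expressed members passed in this contrast by limma, where 2.62% of genes of that level did, and 2 had an unadjusted p under 0.05. Kcnt2, a sodium-activated channel gene, had 7.48 ± 0.32 in control, 7.30 ± 0.26 for R140Q and 7.56 ± 0.18 for R172K and did not pass against control.

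The 4 R172K arrays were unequal across the members. Among the 9 expressed genes that fell, R172K 3 was the highest R172K array for 7 and R172K 4 the lowest for 7. The median of these 9 genes relative to the control mean was -1.03 in R172K 1, -0.93 in R172K 2, -0.37 in R172K 3 and -1.22 in R172K 4. In R140Q arrays the same median lay between -0.58 and -0.43. These genes were chosen for their R172K decrease, so the medians describe the arrays and test nothing. Over all 23 expressed members R172K 3 was the highest of its group for 13 and R172K 4 the lowest for 17. Cell type markers differed between these arrays as well. Within the R172K group, R172K 4 was lowest for every cardiomyocyte marker except Actc1, for which it was highest. R172K 3 was highest for all of them except Tnnt2 and Actc1. Myl2 read 13.11 in R172K 3 and 12.39 in R172K 4. Every macrophage marker was lowest in R172K 3 and highest in R172K 4, with Ctss at 7.17 and 9.18. The part of cell types in the array order of the members was not tested.

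**Figure D4:**
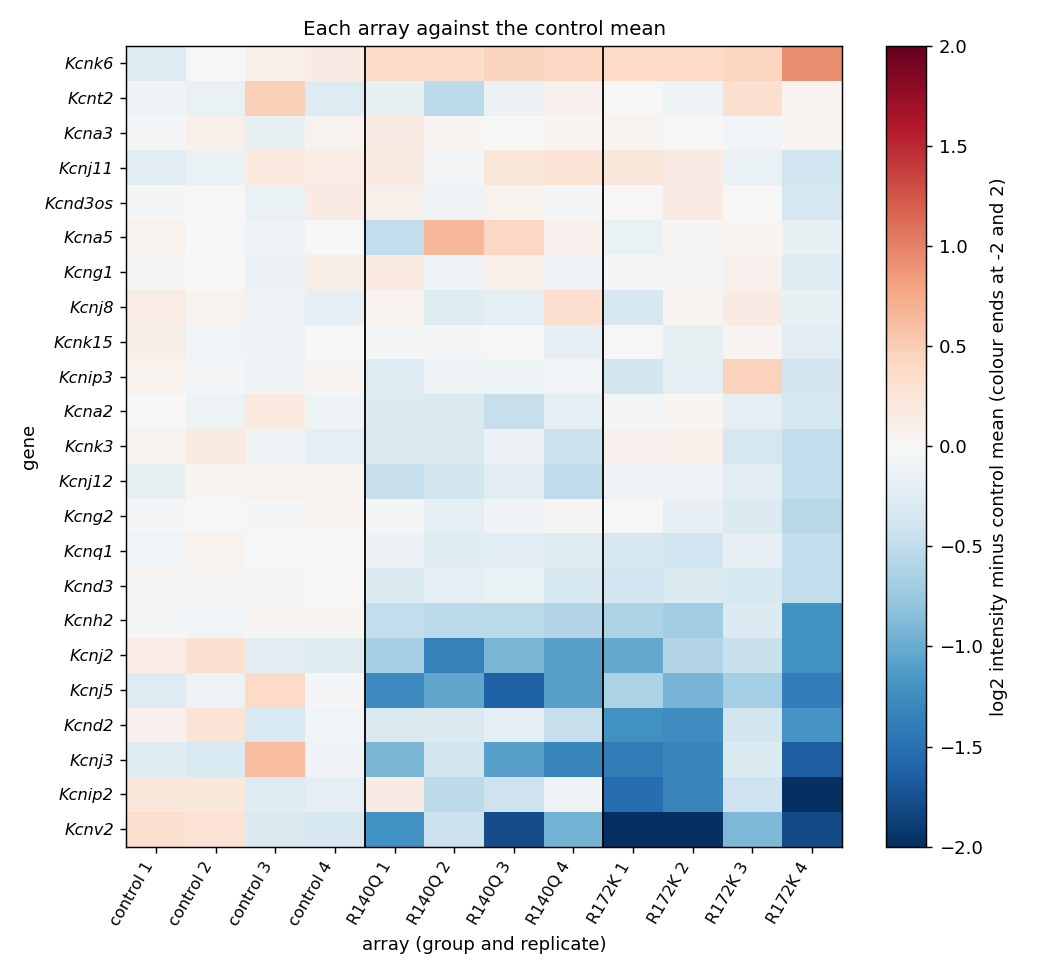
Log2 intensity of each array (columns) minus the control mean for the 23 heart-expressed genes (rows, ordered by their R172K difference), on a colour scale that ends at -2 and 2. Blue is below and red above the control mean; R172K 3 is paler than the other R172K arrays in the lowest rows.

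The groups did not overlap for 10 of the 23 expressed members between R140Q and control, 9 lower and 1 higher, where 23.4% of genes of that level did not overlap. Between R172K and control 9 did not overlap, 8 lower and 1 higher, where 26.6% of genes did not overlap. Without Kcnv2 these counts were 9 and 8 of 22. Between the mutants none of the 23 was free of overlap, where 11.6% of genes were.

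Genes that work with potassium channels were counted as a list of 32, of which 29 were measured. In R172K hearts 5 fell, 2 rose and 22 did not pass, with a median difference of -0.12, where 13% of all genes were called. Of the 29 genes 21 had a mean of 7 or more, and 22.7% of all genes of that level were called. Beside Abcc9, the decreases were the pacemaker channel genes Hcn4 (-0.91, adjusted p = 0.00152) and Hcn2 (-0.74, adjusted p = 0.0217), Amigo1 (-0.38, adjusted p = 0.0241), an auxiliary protein of Kv channels, and the transcription factor gene Nfatc3 (-0.29, adjusted p = 0.0226). Lrrc52, an auxiliary protein of large-conductance channels, rose by 1.05 (adjusted p = 0.00772), and the actin regulator Cttn rose by 0.65 (adjusted p = 0.011). In R140Q hearts 1 fell, Hcn4 (7.62 in control, 6.66 in R140Q, adjusted p = 0.00394), and 28 did not pass, where 2.2% of all genes were called. The transcription factor gene Tbx5 had the largest R140Q difference of the list and missed the threshold (-1.07, limma adjusted p = 0.0525). Its highest array was control 3, at 10.25. At an unadjusted p under 0.05, 6 of the 29 were lower and 2 higher in R140Q hearts, and 9 were lower and 4 higher in R172K hearts. Klf15, a known regulator of Kcnip2 in mouse heart, did not pass in R140Q (-0.72, adjusted p = 0.176) or R172K hearts (-0.68, adjusted p = 0.114).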

How the data were processed

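The authors deposited 1 intensity per probe set and array, and RMA is the tool named in the submitters' processing notes; no version or annotation appears in the labels. RMA gives all arrays nearly the same distribution, so a shift common to most genes is lost. These intensities were read as linear because array medians lay between 74.8 and 78.0; all exceeded 0, and log2 was taken without a pseudocount. Without detection calls, a dim value may lie at background.

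Of 34760 probe sets, 21640 had a single gene symbol, and the one with the highest mean stood for each of 19937 genes; 3 of the 92 members had several. limma 3.58.1 in R 4.3.3 fitted the 3 group means over 12 arrays (two-sided moderated tests, 9 residual and 3.54 prior degrees of freedom), with Benjamini-Hochberg adjustment over all genes. The number of arrays limits the precision. The fit was tested on simulated data. Every heart-expressed member and every dim member that passed a test is named, with the value in every array for those that passed and for Kcnd2, Kcnd3, Kcnh2 and Kcnj2. Members, lists, tests and alternatives were chosen with earlier results of these data known. Alternatives changed the arrays fitted, the handling of replicate numbers, probe sets and dim genes, the normalization, the variance model and weights, the threshold and the Myl7 covariate. Family members without a probe set of a single symbol were not analysed here.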

Additional observations from a re-analysis of the deposited data

Results flagged for a closer look

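In 84 groups of 4 arrays (28 members in 3 groups) 3 arrays lay far from the others of their group by Dixon's test, which flags about 5% of groups by chance. Kcnd2 in R172K 3 lay at 9.014, while the other R172K arrays lay between 8.137 and 8.209. Kcnk6 in R172K 4 lay at 8.509 against 7.971 to 8.013. Kcnj9 in R140Q 3 lay at 5.221 against 5.351 to 5.363. A difference between the mutants passed for Kcnn2, at -0.76 for R172K minus R140Q (limma adjusted p = 0.0469), with all 4 R172K arrays below all 4 R140Q arrays.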

How the results depend on the processing

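In R172K hearts the count of changed members was 15 (10 heart-expressed) and, apart from a threshold of 0.01, at which it was 6 (5 heart-expressed), stayed within 1.5 times under each alternative. With each array left out in turn it ran from 11 to 19, and from 9 to 11 for expressed members. The whole-table count of 2593 then ran from 1327 without R172K 1 to 4157 without R172K 3. In R140Q hearts the count was 3 (2 heart-expressed). It was 9 (8) with the 8 arrays of both groups alone, 10 (9) with array weights, 1 (1) at the threshold of 0.01, 0 (0) with Myl7 as a covariate, where 11 (7) had an unadjusted p under 0.05, and 4 heart-expressed without the dim genes. Every R140Q array lay below every other array for Myl7, so that covariate separates poorly from the R140Q group. Leaving out each array gave 1 to 7 (1 to 6 expressed); it was 1 without control 1, control 2, R140Q 3 or R140Q 4, and 7 without R172K 3 or R172K 4. The whole-table count moved too, from 439 to 1342 with the 8 arrays alone and to 1651 with array weights. Without R172K 3 it was 1015, without R172K 4 it was 982 and without control 1 it was 100. Between the mutants the count was 1 (0 heart-expressed). It was 0 with the 8 arrays alone, with the replicate number as a block (replicate block), with every probe set fitted, without the dim genes, with an intensity trend and robust priors, at the threshold of 0.01 and with Myl7 as a covariate, with 2 to 8 at an unadjusted p under 0.05. It was 3 (2) with array weights and 2 (2) without control 3, R172K 3 and R140Q 4 together, and ran from 0 to 3 (0 to 2) with each array left out, the 3 being without R172K 3. The cause of these moves was not tested.

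The replicate numbers do not pair the arrays: deviations of same-numbered arrays correlated between -0.336 and 0.152. With the block the counts were 3 in R140Q, 14 in R172K and 0 between the mutants. The number of heart-expressed members, 23, was 41 at a level of 6 and 11 at a level of 8. Beyond single arrays, called differences of Kcne1, Kcna7, Kcnj9, Kcnj2 and Kcnj5 missed the threshold under some alternatives. With Myl7 as a covariate this held in R140Q hearts for Kcnj2 (-1.11, adjusted p = 0.143), Kcnj5 (-1.004, 0.142) and Kcne1 (-1.91, 0.0622). With every probe set fitted it held for Kcne1 in R140Q (0.0619) and R172K hearts (0.0526) and for Kcna7 (0.0697). With the 8 arrays alone it held in R172K hearts for Kcne1 (0.0726), Kcna7 (0.0851) and Kcnj9 (0.0585), with the block for Kcna7 (0.0883), and without control 3, R172K 3 and R140Q 4 together for Kcne1 in R140Q hearts (0.0638). The Kcnn2 difference between the mutants missed the threshold with the 8 arrays alone (0.118), the block (0.107), every probe set (0.0855), the intensity trend (0.0507), the 3 arrays left out (0.0755) and the Myl7 covariate (0.15). Leaving Kcnv2 out of the expressed members, chosen after seeing the data, gave 2, 9 and 0 changed. No called difference changed direction under an alternative. The median difference of the expressed members ran from -0.24 to -0.13 in R140Q and from -0.25 to -0.06 in R172K.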
